A study of Mus musculus with 27 samples.

Results

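The genes described here are 5 members of the NF-κB pathway, Bcl3, Nfkbia, Nfkb1, Nfkb2 and Rela, and 3 chemokines, Ccl2, Ccl7 and Cxcl1. All probe sets whose platform symbol is one of these 8 genes were taken, which gave 10 of the 12488 probe sets on the array and covered 7 of the 8 genes. Nfkb1 was not analysed here, as no probe set carried its symbol in the annotation used. Of the 10 probe sets, 9 passed the filter on low intensity and were tested, and 1 of the 2 probe sets of Rela was too dim. These genes, 7 of the 8252 named by a single symbol on the array, were measured on 27 Affymetrix mouse U74v2 arrays hybridised with RNA from NIH/3T3, a long-established line of mouse embryonic fibroblasts. All cultures were at passages 4 and 5, had their serum lowered in steps, and received 15 µM forskolin in serum-free medium for 2 h. They were then rinsed and kept without serum. Individual flasks were harvested right after the pulse (0 h) and every 6 h until 48 h in 3 experiments, which gave 9 time points with 3 arrays each. The stated aim of the study was circadian profiling. Unpulsed cultures were not analysed here, so every change below is relative to the end of the pulse, in cells that had also lost their serum.

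NF-κB is a family of transcription factors that bind DNA as dimers. In resting cells most dimers are held in the cytoplasm by inhibitors of the IκB family, and signals from cytokine or pattern recognition receptors activate the IκB kinase complex, which marks the inhibitors for degradation. The factors then enter the nucleus and raise the transcription of chemokines, of adhesion molecules and of their own inhibitors. Fibroblasts release chemokines that draw monocytes and neutrophils into injured tissue. Forskolin activates adenylyl cyclase and so raises cyclic AMP. Arrays read mRNA, whereas the location and processing of NF-κB proteins, which set their activity, were not measured.

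The sequence before the transcription start is shown for 4 of the genes, because the chemokines and the inhibitors of this pathway are known for NF-κB binding near their starts. The sequences are from RefSeq on build GRCm38.p6 and cover the 110 bases before the start, printed 5′ to 3′ on the strand of the gene. They lie at chr5:90891135-90891244 on the plus strand for Cxcl1, chr12:55492648-55492757 on the minus strand for Nfkbia, chr19:46304627-46304736 on the plus strand for the first of 3 starts of Nfkb2, and chr7:19822756-19822865 on the minus strand for Bcl3. Capitals mark matches to the κB letters, which were GGG, any 3 bases and TTCC, searched on both strands, with overlapping matches joined.
Cxcl1: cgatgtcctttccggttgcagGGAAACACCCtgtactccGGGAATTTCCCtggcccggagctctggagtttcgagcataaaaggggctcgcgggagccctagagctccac
Nfkbia: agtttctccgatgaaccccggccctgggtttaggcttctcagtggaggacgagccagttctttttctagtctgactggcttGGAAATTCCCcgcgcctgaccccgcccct
Nfkb2: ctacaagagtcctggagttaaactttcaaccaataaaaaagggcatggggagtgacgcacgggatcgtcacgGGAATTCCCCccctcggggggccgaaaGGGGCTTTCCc
Bcl3: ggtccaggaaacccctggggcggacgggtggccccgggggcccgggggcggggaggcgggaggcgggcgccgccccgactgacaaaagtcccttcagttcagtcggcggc

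Counting back from the start, Cxcl1 held the letters at bases -71 to -62 on its own strand, at -70 to -61 on the other strand and again at -89 to -80 on the other strand. Nfkbia held 1 match, at -29 to -20. Nfkb2 held 2 before its first start, at -38 to -29 and at -11 to -2, and 1 before each of its other 2 starts. The letters were not in the 250 bases before the start of Bcl3 or Rela. Among the 32851 promoters of the same length in the table, 4.65% held a match, and 3 of the 5 member genes with an entry did. The shares here are per start, whereas Nfkb2 was counted as a gene with 3 starts, which gives it more chances to match. Looser letters, GGG and CC with any 5 bases between them, were in 45.8% of them. The cyclic AMP response element TGACGTCA was in 1.55% of all promoters and in none of the 5 genes, and its shorter form TGACG, in 17.8% of all, was in Cxcl1 and Nfkb2. The AP-1 letters TGANTCA, in 6.75% of all, were in Nfkb2 only, before its second start. Ccl2 and Ccl7, which are neighbours on chromosome 11, had no entry. A match describes letters and is not a site shown to bind a factor.

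**Figure D1:**
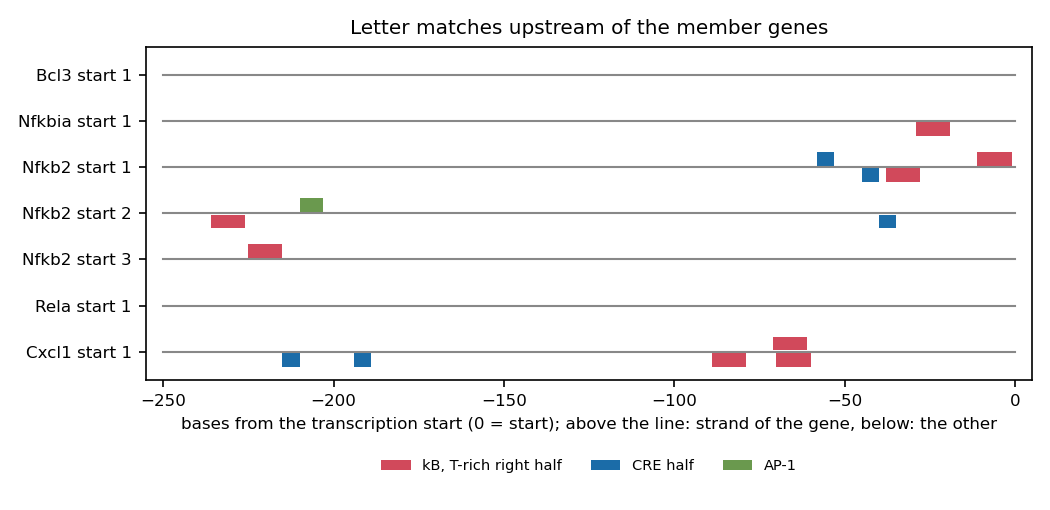
Letter matches in the 250 bases before each transcription start of the members in the promoter table, drawn to scale in bases from the start; bars above a line are on the strand of the gene and bars below on the other. Red bars are the κB letters, blue bars TGACG and green bars TGANTCA; the red bars of Cxcl1, Nfkbia and the first start of Nfkb2 all lie within the 110 bases printed, and Bcl3 and Rela have none.

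The members did not share a course. The mRNA of Bcl3, a nuclear IκB protein, fell by 3.20 ± 0.65 (SE) on the log2 scale by 42 h. Taken from the means of log2 values, this is 0.109 of its value at the end of the pulse. The changes in experiments 1, 2 and 3 were -3.42, -4.63 and -1.56, and the mean change at 48 h was -2.32. Cxcl1, a neutrophil attractant, fell by 1.74 ± 0.36 by 30 h, to 0.300 of its first value. Nfkbia, which encodes the inhibitor IκBα, rose by 0.94 ± 0.25 by 42 h on 1 of its 2 probe sets. Its other probe set stood 0.81 ± 0.32 above 0 h at 42 h, called only when the experiment was a block. Ccl2, a monocyte attractant, was 1.76 ± 0.65 above its 0 h level at 42 h, a difference called only when the experiment was a block. Rela, a main activating subunit, differed from its first level by -0.08 to 0.19, with a standard error of 0.23, and was not called.

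All values are log2(intensity + 12.1) after quantile normalization, and the changes understate those of dim genes. Each comparison was fitted with limma over 7453 probe sets, n = 3 arrays per time point, and a result was called at a Benjamini-Hochberg adjusted p below 0.05 over all of them. A second fit held the experiment as a block, since arrays of one experiment deviated together. Calls lost below when 1 experiment was left out stand beside losses over all probe sets. At 48 h the 590 calls over all probe sets became 549, 281 and 147 without experiments 1, 2 and 3. With the block the 1485 calls became 1228, 850 and 751. The 8 later times share the same 3 arrays at 0 h, so the 8 comparisons are not independent of each other. Nothing beyond the labels' word for the experiments shows that the cultures were separate, and p-values measure the spread between these arrays.

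Against 0 h, none of the 9 member probe sets was called at 6 h or 12 h without the block, where limma called 6.08% and 8.27% of all probe sets. At an unadjusted p below 0.05, 3 members passed at 6 h and 4 at 12 h, beside 17.4% and 20.1% of all probe sets. At 18 h 2 of the 9 were called (7.58% of all probe sets), followed by 1 at 24 h (6.96%) and 1 at 30 h (6.60%). The 36 h arrays gave 3 calls (7.35%), those of 42 h 2 calls (7.08%) and those of 48 h 2 calls (7.92%). With the block, 1 was called at 6 h (16.7% of all probe sets) and 2 were at 12 h (20.4%). The block fit then called 4 at 18 h (19.7%), 3 at 24 h (18.6%) and 4 at 30 h (17.8%). From 36 h on, 6 of the 9 were called with the block at each time, where the fit called 17.8%, 18.9% and 19.9% of all probe sets at 36, 42 and 48 h. Over 9 probe sets a single call, as at 24 h and 30 h without the block, is close to the share of all probe sets. The 6 calls of 9 in the block fit lie above it, but 4 of the 9 probe sets are pairs for the same gene. The counts at 36, 42 and 48 h also share the same 0 h arrays. Because the member genes were chosen with earlier results of these data known, this excess cannot serve as evidence about them. The median change of the 9 members was -0.21 at 36 h and 0.02 at 48 h, beside 0.01 and 0.00 for all probe sets tested, since members moved in both directions.

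**Figure D2:**
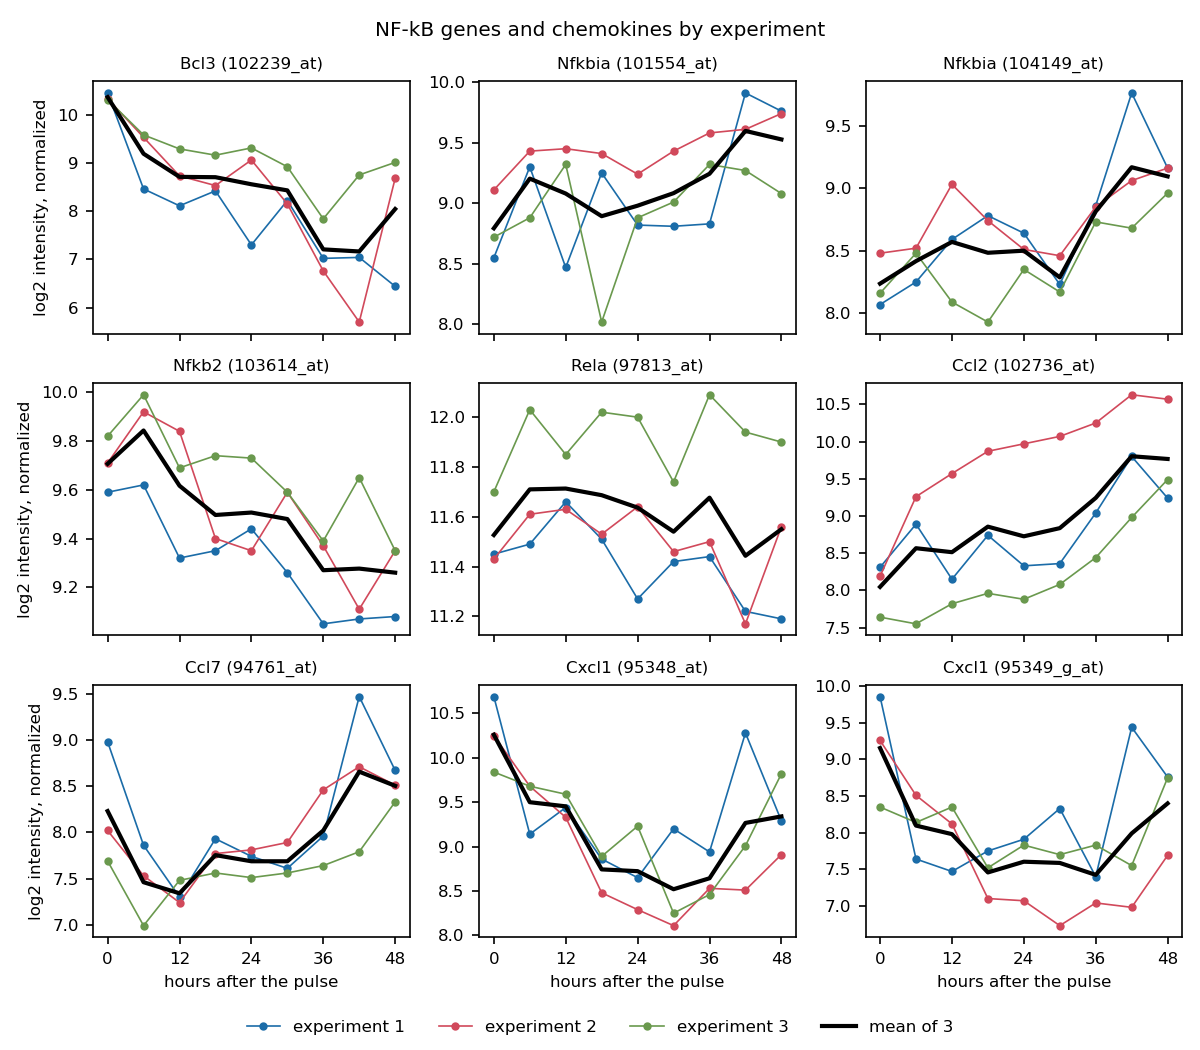
Log2 normalized intensity of each tested member probe set (vertical axes, each with its own range) against hours after the pulse, with 1 thin line per experiment and a thick line for the mean of the 3. Bcl3 starts at 10.36 and ends at 8.05, Ccl2 starts at 8.05 and ends at 9.77, and Rela is highest in experiment 3 at every time.

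**Figure D3:**
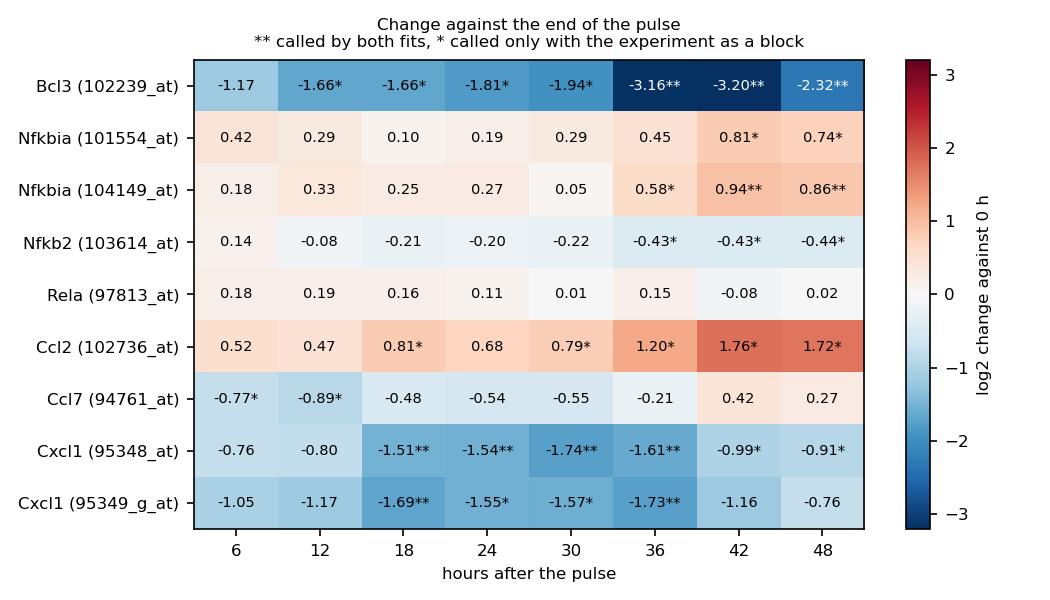
Change of each tested member probe set against 0 h on the log2 scale (colour and printed value) at each later time; 2 stars mark calls by both fits and 1 star calls made only with the experiment as a block. The blue cells of Bcl3 and Cxcl1 and the red cells of Ccl2 hold the largest changes, from -3.20 to 1.76.

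Among the subunits that bind DNA, Rela encodes p65, which carries a strong activation domain. Rela (97813_at) in experiment 1 read 11.45 at 0 h and then 11.49, 11.66, 11.51, 11.27, 11.42, 11.44, 11.22 and 11.19 at the 8 later harvests. In experiment 2 it read 11.43 and then 11.61, 11.63, 11.53, 11.64, 11.46, 11.50, 11.17 and 11.56. In experiment 3 it read 11.70 and then 12.03, 11.85, 12.02, 12.00, 11.74, 12.09, 11.94 and 11.90. Every array of experiment 3 lay above every array of the other 2 experiments, and the later times overlapped the 0 h arrays throughout. The changes against 0 h, from -0.08 to 0.19 with a standard error of 0.23, or 0.11 with the block, were called at no time by either fit. The other probe set of Rela (162042_i_at) had intensities between 1.9 and 14.1 on all arrays and was not tested.

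Nfkb2 encodes p100, which holds dimers back as an inhibitor would and is cut to the DNA-binding subunit p52. Nfkb2 (103614_at) in experiment 1 read 9.59 at 0 h and then 9.62, 9.32, 9.35, 9.44, 9.26, 9.05, 9.07 and 9.08. The values of experiment 2 were 9.71 and then 9.92, 9.84, 9.40, 9.35, 9.59, 9.37, 9.11 and 9.35. Those of experiment 3 were 9.82 and then 9.99, 9.69, 9.74, 9.73, 9.59, 9.39, 9.65 and 9.35. Each experiment was highest at 6 h, and at 36 h and 48 h all 3 arrays lay below all 3 arrays at 0 h. The change was -0.43 ± 0.18 at 36 h (adjusted p = 0.18), -0.43 ± 0.18 at 42 h (adjusted p = 0.185) and -0.44 ± 0.18 at 48 h (adjusted p = 0.155). With the block these 3 differences were called, with adjusted p = 0.0119, 0.0129 and 0.00924. Each of these block calls was lost without some experiments. Without experiment 1 the adjusted p was 0.131, 0.129 and 0.0985 at 36, 42 and 48 h. Without experiment 3 it was 0.128 at 36 h and 0.12 at 48 h, and without experiment 2 it was 0.128 at 42 h.

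Bcl3 encodes an atypical IκB protein that acts in the nucleus on dimers of p50 or p52. Bcl3 (102239_at) in experiment 1 read 10.45 at 0 h and then 8.46, 8.11, 8.42, 7.30, 8.22, 7.02, 7.04 and 6.44. Its values in experiment 2 were 10.33 and then 9.53, 8.73, 8.53, 9.06, 8.15, 6.76, 5.70 and 8.68. Experiment 3 gave 10.31 and then 9.58, 9.29, 9.16, 9.31, 8.92, 7.84, 8.75 and 9.01. The 3 arrays at 0 h lay close together, from 10.31 to 10.45, and every one of the 24 later arrays lay below all of them. As intensity, the mean was 1300 ± 52.2 (SD, n = 3) at 0 h, 428 ± 160 at 12 h and 149 ± 59.8 at 36 h. The mean intensity at 42 h was 196 ± 197, with 39.2 in experiment 2. At 42 h and 48 h the experiments spread widely, with SDs of 1.53 and 1.40 on the log2 scale, and experiment 3 stood highest at both times.

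Bcl3 fell at 36, 42 and 48 h, with changes of -3.16, -3.20 and -2.32, each ± 0.65 (limma adjusted p = 0.00282, 0.00253 and 0.0256). Its differences from 12 h to 30 h, between -1.66 and -1.94, were called only with the block, with adjusted p from 0.00565 at 30 h to 0.015 at 18 h. The 6 h difference of -1.17 was called by neither fit (adjusted p = 0.374, and 0.0975 with the block), with -1.99, -0.79 and -0.73 in experiments 1, 2 and 3 against their own first arrays. Without experiment 2 the change was -2.95 at 36 h (adjusted p = 0.081) and -2.49 at 42 h (adjusted p = 0.147). The 48 h call was lost without any 1 of the experiments, with -1.47 without experiment 1 (adjusted p = 0.237), -2.66 without experiment 2 (adjusted p = 0.115) and -2.83 without experiment 3 (adjusted p = 0.0599). With the block, the calls at 30, 36 and 42 h held without each experiment in turn, and the others did not. Without experiment 1 the block fit gave adjusted p = 0.109, 0.0713, 0.178 and 0.0705 for 12, 18, 24 and 48 h. Without experiment 3 it was 0.0507 at 12 h and 0.0575 at 18 h.

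Nfkbia encodes IκBα, the inhibitor that is degraded on activation and made again as an NF-κB target. Nfkbia (104149_at) in experiment 1 read 8.07 at 0 h and then 8.25, 8.59, 8.78, 8.64, 8.23, 8.86, 9.76 and 9.16. On this probe set experiment 2 gave 8.48 and then 8.52, 9.03, 8.74, 8.51, 8.46, 8.85, 9.06 and 9.16. Here experiment 3 gave 8.16 and then 8.48, 8.09, 7.93, 8.35, 8.17, 8.73, 8.68 and 8.96. At 36, 42 and 48 h all 3 arrays stood above all 3 arrays at 0 h, and before 36 h the groups overlapped. The mRNA rose by 0.94 ± 0.25 at 42 h (adjusted p = 0.0218) and by 0.86 ± 0.25 at 48 h (adjusted p = 0.0341), and with the block also at 36 h, by 0.58 ± 0.20 (adjusted p = 0.0494), a call lost without any 1 experiment (adjusted p from 0.133 to 0.157). The 42 h value leaned on the array of experiment 1. Without that array it was 0.64 (adjusted p = 0.175), or 0.65 with the block (adjusted p = 0.0248), and without the whole of experiment 1 it was 0.56 (adjusted p = 0.327, and 0.093 with the block). Without experiment 2 it was 1.11 (adjusted p = 0.105). The 48 h call was lost without any 1 experiment, at 0.74 to 0.95, and held in each case with the block.

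The second probe set of Nfkbia (101554_at) read 8.55 at 0 h in experiment 1 and then 9.30, 8.47, 9.25, 8.82, 8.81, 8.83, 9.91 and 9.76. It read 9.11 in experiment 2 and then 9.43, 9.45, 9.41, 9.24, 9.43, 9.58, 9.61 and 9.74. It read 8.72 in experiment 3 and then 8.88, 9.32, 8.02, 8.88, 9.01, 9.32, 9.27 and 9.08. The arrays at 42 h stood above those at 0 h and the other times overlapped them. Its difference was 0.81 ± 0.32 at 42 h (adjusted p = 0.148) and 0.74 ± 0.32 at 48 h (adjusted p = 0.19), and the block called both (adjusted p = 0.0284 and 0.0433). Both block calls were lost without experiment 1 or experiment 2, with adjusted p from 0.117 to 0.197, and the 42 h call also without the single 42 h array of experiment 1 (0.58, adjusted p = 0.173). The 2 probe sets had the same direction at every time.

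Among the chemokines, Cxcl1 attracts neutrophils and is a known target of NF-κB. Cxcl1 (95348_at) in experiment 1 read 10.69 at 0 h and then 9.14, 9.44, 8.86, 8.65, 9.20, 8.94, 10.28 and 9.29. Its experiment 2 values were 10.25 and then 9.68, 9.33, 8.48, 8.29, 8.11, 8.53, 8.51 and 8.91. Its experiment 3 values were 9.84 and then 9.68, 9.59, 8.89, 9.23, 8.25, 8.46, 9.01 and 9.82. Of the 24 later arrays, the 1 at 42 h of experiment 1 was the only one that did not lie below all 3 arrays at 0 h. At 48 h experiment 3 was back near its own first value, at -0.01, whereas experiments 1 and 2 were at -1.39 and -1.34.

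Cxcl1 fell from 18 h to 36 h, with changes of -1.51, -1.54, -1.74 and -1.61, each ± 0.36 (limma adjusted p = 0.00969, 0.00861, 0.00336 and 0.00602). At 42 h and 48 h the differences of -0.99 and -0.91 were called only with the block (adjusted p = 0.0264 and 0.0389). The 42 h block call was lost without experiment 2 or experiment 3 (adjusted p = 0.378 and 0.081), and the 48 h block call without experiment 1 or experiment 2 (adjusted p = 0.106 and 0.294). Without the 42 h array of experiment 1, the 42 h difference was -1.50 (adjusted p = 0.00842). Leaving out experiment 2 or experiment 3 ended all 4 calls, with adjusted p from 0.059 to 0.14. With the block, the calls from 18 h to 36 h held without each experiment in turn.

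The second probe set of Cxcl1 (95349_g_at) read 9.86 at 0 h in experiment 1 and then 7.64, 7.47, 7.75, 7.91, 8.33, 7.40, 9.44 and 8.76. It read 9.26 in experiment 2 and then 8.51, 8.12, 7.10, 7.07, 6.73, 7.04, 6.98 and 7.69. It read 8.35 in experiment 3 and then 8.14, 8.35, 7.52, 7.83, 7.70, 7.83, 7.55 and 8.75. From 18 h to 36 h all arrays lay below the 0 h arrays, and the 42 h array of experiment 1 was high here too. It fell at 18 h and 36 h, with changes of -1.69 and -1.73, each ± 0.51 (adjusted p = 0.0417 and 0.0374). Its differences at 24 h and 30 h, -1.55 and -1.57, were called only with the block (adjusted p = 0.0155 and 0.0153), or without it when the 42 h array of experiment 1 was left out (adjusted p = 0.0246 and 0.0233). Both of its calls without the block were lost without any 1 experiment, at -1.36 to -2.33 and adjusted p from 0.0697 to 0.218. All 4 of its block calls were lost without experiment 2, with adjusted p from 0.0804 to 0.218.

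Ccl2 attracts monocytes through the receptor Ccr2. Ccl2 (102736_at) in experiment 1 read 8.31 at 0 h and then 8.89, 8.15, 8.74, 8.33, 8.36, 9.04, 9.80 and 9.24. Its series in experiment 2 was 8.19 and then 9.26, 9.57, 9.87, 9.97, 10.07, 10.25, 10.63 and 10.57. Its series in experiment 3 was 7.64 and then 7.55, 7.82, 7.96, 7.88, 8.08, 8.44, 8.98 and 9.49. From 6 h on experiment 2 stood above both others at every time, and from 36 h on all 3 arrays stood above all 3 arrays at 0 h. Measured against their own first arrays, experiments 1, 2 and 3 were higher by 1.49, 2.44 and 1.34 at 42 h and by 0.94, 2.37 and 1.85 at 48 h.

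The spread between experiments set the call for Ccl2. Without the block the differences of 1.20 ± 0.65 at 36 h, 1.76 ± 0.65 at 42 h and 1.72 ± 0.65 at 48 h were not called (adjusted p = 0.357, 0.119 and 0.121). With the block their standard error was 0.27, and all 3 were called (adjusted p = 0.0022, 3.96e-05 and 4.7e-05). The block also called 0.81 at 18 h and 0.79 at 30 h (adjusted p = 0.0322 and 0.0405), and these were not called when experiment 2 was left out, at 0.38 and 0.25 (adjusted p = 0.446 and 0.659), nor when experiment 3 was. Without experiment 2 the 36 h value was 0.77 (adjusted p = 0.0925). The calls at 42 h and 48 h held in the block fit without each experiment in turn, with differences from 1.39 to 2.11, and without the 42 h array of experiment 1, with 1.67 and 1.72.

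Ccl7 encodes another monocyte attractant, whose gene lies next to Ccl2. Ccl7 (94761_at) in experiment 1 read 8.98 at 0 h and then 7.86, 7.30, 7.93, 7.74, 7.61, 7.96, 9.47 and 8.67. Its readings in experiment 2 were 8.02 and then 7.53, 7.24, 7.77, 7.81, 7.89, 8.46, 8.71 and 8.51. Its readings in experiment 3 were 7.69 and then 6.99, 7.48, 7.56, 7.51, 7.56, 7.64, 7.79 and 8.33. The 12 h arrays lay below all 0 h arrays, and at every other time the groups overlapped. No difference from 0 h was called without the block, with -0.77 ± 0.34 at 6 h (adjusted p = 0.215) and -0.89 ± 0.34 at 12 h (adjusted p = 0.114), and the block called these 2 (adjusted p = 0.0451 and 0.0174). In the block fit the 6 h call was lost without any 1 experiment (adjusted p from 0.122 to 0.154). The 12 h call was lost without experiment 1, at -0.50, or experiment 2 (adjusted p = 0.205 and 0.113). At 42 h and 48 h the differences were 0.42 and 0.27, called by neither fit. At 6 h and 12 h Ccl2 stood at 0.52 and 0.47 above its first level, called by neither fit, where Ccl7 stood below its own, and the difference between these neighbouring genes was not tested.

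Drift after the first 6 h was the slope of a straight line over the 24 arrays from 6 h to 48 h. The line was fitted beside cosine and sine terms of 24 h, so the slope is adjusted for them. This fit left out the 0 h arrays. Limma called 3 of the 9 member probe sets, beside 6.10% of all probe sets. Bcl3 fell by 1.07 ± 0.31 log2 units per day (adjusted p = 0.0381) and Nfkb2 fell by 0.30 ± 0.08 per day (adjusted p = 0.0279). Ccl7 rose by 0.62 ± 0.15 per day (adjusted p = 0.0113). With the block 5 were called, beside 17.1% of all probe sets. The additional calls were Ccl2, which rose by 0.71 ± 0.12 per day (adjusted p = 0.000158, against 0.188 without the block), and Nfkbia on 104149_at, at 0.36 ± 0.11 per day (adjusted p = 0.0234, against 0.1). The 2 chemokine genes of chromosome 11 both rose in the block fit, while Cxcl1 had -0.14 ± 0.21 and 0.08 ± 0.25 per day on its 2 probe sets, neither called.

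Each of the 3 trends called without the block was lost without experiment 2, at -0.88 for Bcl3 (adjusted p = 0.296), -0.32 for Nfkb2 (adjusted p = 0.166) and 0.55 for Ccl7 (adjusted p = 0.217). Each was also lost without experiment 3, at -1.25, -0.29 and 0.69 (adjusted p = 0.0872, 0.175 and 0.0766). Over all probe sets the 455 trend calls became 737, 91 and 37 without experiments 1, 2 and 3. In the block fit the trends of Bcl3, Nfkb2 and Ccl2 held without each experiment, and that of Ccl7 was 0.55 without experiment 2 (adjusted p = 0.0561). The block trend of Nfkbia was lost without any 1 of experiments 1, 2 and 3 (adjusted p = 0.0729, 0.0691 and 0.134). Without the 42 h array of experiment 1 the trend of Ccl7 was 0.55 (adjusted p = 0.00838) and that of Bcl3 was -1.05 (adjusted p = 0.0525). With array medians centred the trend of Nfkb2 was -0.33 (adjusted p = 0.0543), and with no filter that of Bcl3 had an adjusted p of 0.0597.

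When all 9 time points were tested together with no direction or time chosen, Bcl3 (adjusted p = 0.0325) and Cxcl1 on 95348_at (adjusted p = 0.0268) were called, 2 of 9 beside 7.30% of all probe sets. Without the 42 h array of experiment 1 the value for Bcl3 was 0.0611. With the block 6 were called, beside 26.4% of all, adding Nfkbia on 104149_at, Nfkb2, Ccl2 and Ccl7. In this fit Bcl3 and Ccl2 held without each experiment in turn. Nfkb2 was lost without any 1 experiment (adjusted p = 0.0868, 0.0566 and 0.112 without experiments 1, 2 and 3). Nfkbia was lost without experiment 1 or experiment 2 (adjusted p = 0.0868 and 0.0713), and Ccl7 and Cxcl1 were lost without experiment 2 (adjusted p = 0.122 and 0.111).

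From 6 h to 48 h limma called none of the 9 without the block, beside 1.33% of all, with 5 at an unadjusted p below 0.05, beside 10.0% of all. With the block it called 5, beside 12.2%, namely Bcl3, Nfkbia on 104149_at, Nfkb2, Ccl2 and Ccl7. None of these 5 calls held without each experiment in turn. Nfkb2 (adjusted p from 0.126 to 0.245) and Nfkbia (from 0.135 to 0.175) were lost without any 1 experiment. Bcl3 and Ccl7 were lost without experiment 2 (adjusted p = 0.25 and 0.233), and Bcl3, Ccl2 and Ccl7 without experiment 3 (adjusted p = 0.189, 0.242 and 0.0521). Cxcl1 was called by neither fit over these times (adjusted p = 0.473, and 0.0793 with the block, on 95348_at), although the block fit called it without experiment 1 (adjusted p = 0.0164) and without the 42 h array of experiment 1 (adjusted p = 0.0314).

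A 24 h rhythm was called for no member and for no other probe set tested, so this result does not set the members apart. A cosine of 24 h beside a straight line, fitted with limma from 6 h to 48 h, was called for 0 of the 9 members and for 0% of all probe sets, with or without the block. None of the 9 had an unadjusted p below 0.05 without the block, where 3.31% of all probe sets did. With the block 1 member did, Bcl3 (unadjusted p = 0.0307, adjusted p = 0.416, limma), beside 10.5% of all. The fitted amplitude was 0.47 log2 units for Bcl3, 0.17 for Ccl7 and at most 0.15 for the others. Sampling every 6 h over 48 h limits how small a rhythm can be seen.

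Around the members, 129 genes of the pathway were listed by role, of which 95 had a probe set and 51 passed the filter, each by its brightest probe set. At 48 h 8 of the 51 differed from 0 h without the block, 5 higher and 3 lower, and 15 with it, beside 7.92% and 19.9% of all probe sets. Along the line from 6 h to 48 h 5 were called, 3 rising and 2 falling, and 11 with the block, beside 6.10% and 17.1% of all. The trend counts lie near those shares. No count of this kind is a test of the list.

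Of the other subunits and inhibitors 4 were tested. Relb, the usual partner of p52, fell by 0.67 ± 0.20 at 48 h (adjusted p = 0.0393), from 9.09, 9.46 and 9.46 in experiments 1, 2 and 3 to 8.46, 8.75 and 8.81. It also fell along the line by 0.33 ± 0.09 per day (adjusted p = 0.0284), as Nfkb2 did. Both calls of Relb were lost without experiment 2 or experiment 3, with -0.65 and -0.67 at 48 h. Nfkbiz, another nuclear IκB protein, rose along the line only in the block fit, by 0.27 per day (adjusted p = 0.0301), and that call was lost without experiment 2 or experiment 3 (adjusted p = 0.32 and 0.152). Nfkbib, which encodes IκBβ, was called lower only with the block, at 12, 18 and 42 h. Its changes there were -0.55, -0.61 and -0.56 (adjusted p = 0.0424, 0.0261 and 0.041 in the block fit). At 48 h neither fit called Nfkbib or Nfkbie, which encodes IκBε, and they stood at -0.45 ± 0.21 and -0.34 ± 0.47. The median change of the 4 at 48 h was -0.40, beside 0.00 for all probe sets.

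Of 7 kinases and partners, Ikbke alone was called at 6 h without the block, and Ikbkg was added with it. Ikbke, a kinase related to the IκB kinases, rose by 1.09 ± 0.28 (adjusted p = 0.0211), and it was lost without experiment 2 (0.71, adjusted p = 0.357) or experiment 3 (1.20, adjusted p = 0.129). Ikbkg, the regulatory subunit of the complex, stood 0.42 above its first level at 6 h in the block fit (adjusted p = 0.0394), a call lost without experiment 2 or experiment 3 (adjusted p = 0.29 and 0.391). Along the line Ikbkg had -0.33 per day on its brightest probe set, called in the block fit only (adjusted p = 0.00103, against 0.0611), whereas its other tested probe set had the opposite sign, at 0.11 ± 0.11 (adjusted p = 0.672). Ikbkb, a catalytic subunit, was not called, at 0.10 ± 0.25 at 48 h.

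Among 13 receptors and adaptors, 2 were higher and 1 lower at 48 h without the block, beside 7.92% of all probe sets called. With the block 2 were higher and 2 lower, beside 19.9% of all. Traf5, an adaptor of tumour necrosis factor receptors, rose by 2.15 ± 0.23 at 6 h (adjusted p = 3.52e-06) and stood 2.22 above 0 h at 48 h (adjusted p = 1.06e-06). Traf4 rose by 0.76 ± 0.18 at 48 h (adjusted p = 0.00853), but its other tested probe set had 0.09 ± 0.26, and the call was lost without experiment 1 or experiment 3 (adjusted p = 0.0734 and 0.233). Myd88, the adaptor of Toll-like receptors, fell at 24 h and 48 h, with changes of -0.99 and -1.14, each ± 0.23 (adjusted p = 0.00828 and 0.00236). At 48 h its arrays read 7.16, 7.55 and 7.34, below all of 8.71, 8.17 and 8.59 at 0 h, and without experiment 3 the change was -1.09 (adjusted p = 0.125). Of 3 negative regulators none was called at 48 h, and Tnip1, the one with the smallest p along the line, had -0.14 ± 0.08 per day, called only with the block (adjusted p = 0.0308) and lost there without experiment 1 or experiment 3 (adjusted p = 0.342 and 0.215).

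Of 14 target genes other than chemokines, 2 were higher and none lower at 48 h without the block, beside 7.92% of all probe sets called. With the block 3 were higher and 1 lower, beside 19.9% of all. The median change of the 14 was 0.36, beside 0.00 for all probe sets. Csf1, the growth factor of macrophages, rose by 0.88 ± 0.14 at 48 h (adjusted p = 0.000278), to 11.73, 11.57 and 11.66 from 10.71, 10.61 and 11.01. Vcam1, an adhesion molecule, rose by 0.84 ± 0.14 at 48 h (adjusted p = 0.000351) on its brightest probe set, and its other 2 had -0.23 ± 0.23 and 0.30 ± 0.25, neither called. Without experiment 3 its adjusted p at 48 h was 0.0561. Along the line Csf1, Vcam1 and Ier3 rose, by 0.34, 0.40 and 0.72 per day, and Mmp9, a matrix protease, fell by 0.84 ± 0.18 per day (adjusted p = 0.00576). These trends were lost without experiment 3, at 0.39, 0.39, 0.77 and -0.67 (adjusted p = 0.0595, 0.0609, 0.222 and 0.192). That of Ier3 was also lost without experiment 2. The other 2 probe sets of Vcam1 had 0.23 ± 0.11 and 0.31 ± 0.13 per day. Neither was called without the block (adjusted p = 0.281 and 0.19). The one at 0.23 was lower at 6 h, at -0.88 ± 0.23 (adjusted p = 0.0241). Mmp9 stood higher at 6 h, where the line starts, than at 0 h. In experiments 1, 2 and 3 it read 9.64, 9.44 and 9.26 at 0 h and 10.32, 10.62 and 10.65 at 6 h. At 48 h it read 8.27, 9.32 and 8.35.

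Of 32 other chemokines 21 had a probe set and 4 passed the filter. Cx3cl1, a membrane-bound chemokine, fell by 1.55 ± 0.18 at 6 h (adjusted p = 6.69e-06), from 11.44, 10.93 and 10.77 to 9.52, 9.52 and 9.45, and its change at 48 h was -1.19 (adjusted p = 0.000134). Cxcl5, a neutrophil attractant like Cxcl1, fell at 18, 36 and 42 h, with changes of -1.65, -2.05 and -1.51, each ± 0.46 (adjusted p = 0.0263, 0.00615 and 0.0456). These 3 calls of Cxcl5 were lost without experiment 2 or experiment 3, with adjusted p from 0.0793 to 0.296, and held without each experiment in the block fit. At 24 h Cxcl5 was at -1.38, called with the block alone (adjusted p = 0.00339, against 0.0729). Cxcl12 rose by 0.66 ± 0.15 at 48 h (adjusted p = 0.00761) on its brightest probe set, and its other 2 had 1.46 ± 0.51 and 0.75 ± 0.28, neither called. That call was lost without experiment 2 or experiment 3, at 0.59 and 0.60 (adjusted p = 0.155 and 0.179). Of 6 chemokine receptors, Ackr3, a scavenging receptor for Cxcl12, fell by 1.56 ± 0.33 at 24 h (adjusted p = 0.00399), and the call was lost without experiment 1 (-1.09, adjusted p = 0.0597) or experiment 2 (-1.81, adjusted p = 0.0536).

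**Figure D4:**
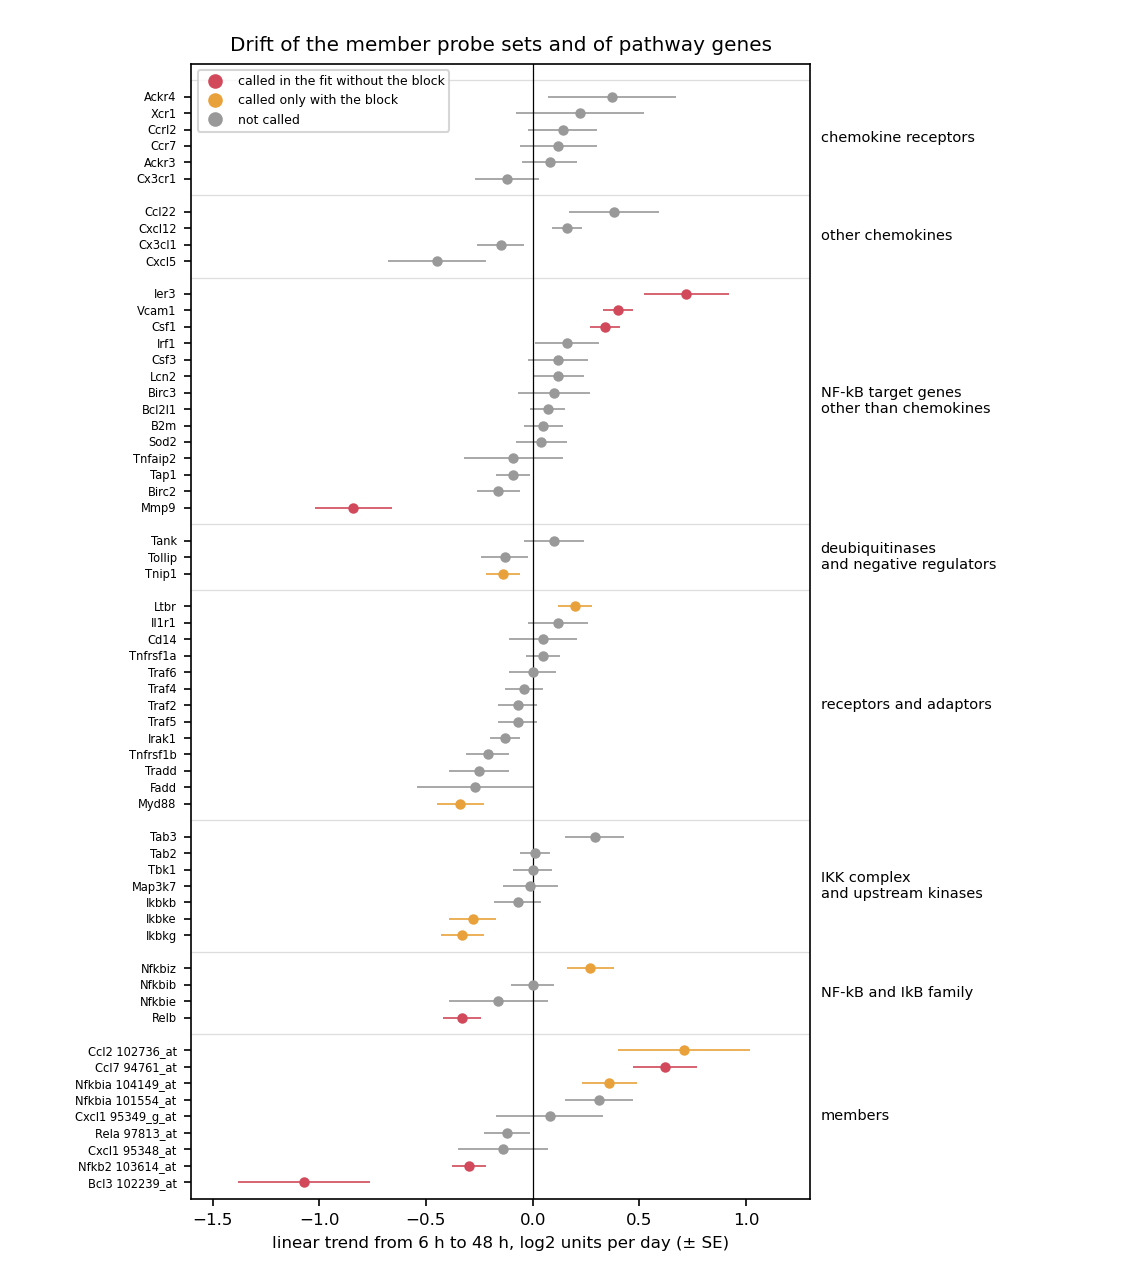
Linear trend from 6 h to 48 h in log2 units per day (horizontal axis), fitted beside cosine and sine terms of 24 h. Points are estimates with their standard errors from the fit without the block, for the 9 member probe sets and the 51 tested pathway genes by list. Red points were called without the block and orange points only with it; Bcl3 at -1.07 and Mmp9 at -0.84 lie farthest to the left, and Ier3 at 0.72 and Ccl2 at 0.71 farthest to the right.

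The profiles most like each member were taken from 5643 genes by Pearson correlation of log2 values over the 27 arrays, which share time points, experiments and normalization. They were Ptprn (r = 0.81), Mrpl37 (0.80) and Cxcl5 (0.80) for Bcl3, and Wdr92 (0.83), Yes1 (0.81) and Gclm (0.78) for Cxcl1. For Ccl7 they were Hk2 (0.88), Dusp6 (0.87) and Nop58 (0.86). For these 3 members the correlation within each experiment was at least 0.70 for every gene named. Ccl2 had Agtr2 (0.85), Cyb5b (0.80) and Tubb6 (0.79), and with Cyb5b it was -0.13 within experiment 1. Nfkb2 had Eef2 (0.89), Ethe1 (0.88) and Ctse (0.87), with values of at least 0.72 within each experiment. Rela had Dctn1 (0.90), Cic (0.88) and Tsc2 (0.88), with values down to 0.29 within an experiment. Nfkbia on 101554_at had Eif4ebp1 (0.74), Ifrd2 (0.65) and Rnf2 (0.64), with values down to 0.33 within an experiment.

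The fibroblast identity of the cultures was checked by 16 marker genes, all of which passed the filter, with a summed intensity of 158949 to 159401 at 0 h and up to 224327 later. Of 15 macrophage and leukocyte markers with a probe set 6 passed. The summed intensity of all 15 was 1402 to 1510 at 0 h and 1437 to 2104 at 12 h. It was 1120 to 1601 at 42 h and 980 to 1397 at 48 h. Those above the filter were Cd68, Csf1r, Laptm5, Cd52, Coro1a and Ms4a1, with mean log2 values of 8.05, 7.61, 8.03, 7.10, 7.01 and 7.74. Ptprc, the leukocyte marker CD45, and the myeloid markers Adgre1, Itgam and Lyz2 were below the 6.77 that the filter required, at 4.49, 4.93, 4.76 and 4.21. The part of these markers in the members' changes was not tested. Endothelial markers passed in 2 of 7 cases and epithelial markers in 1 of 6. The ratio of 3′ to 5′ control probe sets was 1.11 to 1.73 for actin and 0.703 to 0.916 for Gapdh. The part of the fibroblast sum and of RNA quality in the members' changes was not tested. Fewer cells of a kind and less RNA per cell cannot be told apart in such samples, and detection calls were not used, so a low intensity cannot be told from background.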

How the data were processed

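Per the labels, biotin-labelled cRNA from total RNA was hybridised to U74v2 arrays, 1 per sample. The authors deposited 1 linear intensity per probe set and array; it was made by software not given in the sources used here. The mean of the deposited intensities after leaving out 2% at each end was 500.28 to 500.35 on every array, so they had been scaled to a common level; array medians were 167.6 to 201.3. Depth is not defined for arrays, and their number, 3 per time point, limits the precision. The platform annotation gave 1 symbol to 10855 probe sets, several to 396 and none to 1193; 10839 matched a RefSeq gene and 0 symbols changed. The 66 control probe sets were left out, and 1 empty cell stayed missing.

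From the deposited intensities, log2(intensity + 12.1) was computed, with the 10th percentile of the intensities as the pseudocount, and quantile normalized. Probe sets whose mean was above the 40th percentile (log2 6.77) were kept, 7453 in all. Models were fitted in R 4.3.3 (limma 3.58.1, prior variance trended on intensity), and p-values were adjusted by the Benjamini-Hochberg method over all probe sets tested. The main fit had time points only. Experiment numbers are in the labels, and the deviations of same-numbered arrays from the time point means correlated at 0.426 to 0.642, 0.349 to 0.599 and 0.135 to 0.482 over 36 pairs in experiments 1, 2 and 3, so the numbers pair the arrays, and values with the experiment as a block stand beside results whose call it changes. No pair of arrays held identical values. The steps were tested on simulated data. Alternatives were the scaling, pseudocount, filter, intensity trend, array weights, block and arrays left out.

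The member genes and the pathway and marker lists were chosen with earlier results of these data known. Every member probe set is named with its values. From each list up to 4 called genes are named by the size of their change, and otherwise the gene with the smallest p; the statements on Nfkbib, Nfkbie, Ikbkb, Ikbkg, Nfkbiz and Cxcl5 were chosen after their values were seen. The 3 genes with the highest correlation are named for each member. Promoter sequences are those of RefSeq on GRCm38.p6.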

Additional observations from a re-analysis of the deposited data

How the results depend on the processing

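The 11 calls of members against 0 h became 32 with the experiment as a block, and 0 to 7 when 1 experiment was left out without it. With the block and without experiment 1, 2 or 3 the count was 20, 17 and 23, and with the block and without the 42 h array of experiment 1 it was 35; the combined settings and that array, which held the highest value of several members, were chosen after seeing the data. Variation over the 9 time points was called for 2 members, for 1 without the filter, 1 without the 42 h array, 0 or 1 without 1 experiment, 6 with the block, 7 with the block and without that array, and 5, 2 and 5 with the block and without experiment 1, 2 and 3. Variation from 6 h to 48 h was called for 0 members, for 1 with array weights, 5 with the block, 6 with the block and without that array, and 4, 1 and 0 with the block and without experiment 1, 2 and 3. The 3 trends became 5 with the block, with or without that array, 4, 3 and 4 with the block and without experiment 1, 2 and 3, and 0 to 3 when 1 experiment was left out. The rhythm count was 0 under every setting run. Of 16 calls in all, 16 remained with either other pseudocount, 15 with array medians centred, 14 with the scaling as deposited, 11 without the filter and 16 with the block. No call changed direction. Calls near the threshold that single settings ended were Nfkbia (104149_at) at 48 h without the filter (adjusted p = 0.0571) and at 42 h with array weights (0.0507), and Cxcl1 (95349_g_at) at 18 h and 36 h with the scaling as deposited (0.0531 and 0.0554). Among pathway genes, calls over the 9 time points went from 8 to 14 with the block, and trends from 5 to 11. Among all probe sets, variation over the 9 time points was called for 544, and for 1968 with the block, 1134 with array weights, 113 without experiment 2 and 31 without experiment 3. Leaving out an experiment leaves 2 arrays per time point. The cause of the other shifts was not tested. Signal over background is unknown for dim probe sets.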
